A study of Mus musculus with 14 samples.

Results

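In the mouse small intestinal epithelium, 794 autosomal regions carried a peak of the histone variant H2A.Z at E12.5 and again in adult Lgr5+ intestinal stem cells (ISC), with no peak at E14.5 or in adult enterocytes. They were chosen by the presence and absence of peaks alone. Peaks of all 8 libraries were merged wherever they overlapped or touched, and regions of chromosomes 1 to 19 under 3000 bp wide were kept. A region belonged to the set when it had a peak in both E12.5 and both ISC libraries and in none of the 4 libraries of the other stages. These 794 regions were 1.83% of the 43299 regions of that kind. No region had the reverse pattern, a peak in both E14.5 and both enterocyte libraries and none at E12.5 or in ISC. Few regions could have had it. E14.5 replicate 2 had a peak in 5122 of the 43299 regions, and 4710 of these had one in all 4 E12.5 and ISC libraries. No gene positions of the files' genome build, mm9, were used here, so the regions are named by their coordinates and the genes around them were not analysed here.

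H2A.Z replaces the core histone H2A in a minority of nucleosomes and is concentrated at promoters and enhancers, where it is deposited by the SRCAP and EP400 remodelling complexes. It is known for marking regulatory DNA that is active or poised. At E12.5 the gut epithelium is a proliferating, largely undifferentiated tube, and at E14.5 it is about to form villi. Lgr5+ stem cells divide at the crypt base of the adult gut and give rise to enterocytes, the absorptive cells of the villus, which no longer divide.

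Chromatin immunoprecipitation and sequencing (ChIP-seq) with 1 H2A.Z antibody gave 2 libraries for each of 4 groups. Mice were of mixed C57BL/6 CD1 background in every group. The embryonic groups were small intestinal cells of E12.5 and of E14.5 embryos, sorted for the epithelial surface protein EpCAM and against the endothelial marker CD31, the leukocyte marker CD45 and the dead-cell dye DAPI. ISC and enterocytes came from male Lgr5EGFP-Cre-ERT mice at postnatal day 60, in which the Lgr5 locus drives the green fluorescent protein, so enterocytes carried the reporter allele too. ISC were the cells with high fluorescence, and enterocytes were gated as the embryonic cells were, with no enterocyte-specific marker. The marker genes of these cell types were not analysed here. Each stage was analysed in biological duplicates, and nothing states whether these came from separate animals or from pools, so the spread between them may be technical. Fewer cells with H2A.Z at a region and less H2A.Z in each cell cannot be told apart in such bulk samples.

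The H2A.Z libraries held 27835048 to 41274126 tags and 6136 to 32131 peaks. The libraries in which these regions had no peak had the shorter lists. E14.5 had 17288 and 6136 peaks and enterocytes had 14256 and 20483, against 26059 and 22177 at E12.5 and 26925 and 32131 in ISC. The 2 shortest lists (E14.5 replicate 2, enterocyte replicate 1) came with estimated fragment sizes of 71 and 67 bp, against 191 to 247 bp in the other libraries. The part of list length in the pattern was not tested.

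Most regions with H2A.Z at E12.5 and in ISC also had it at another stage. A peak in both E12.5 and both ISC libraries was present in 14218 regions, and the 794 regions were 5.58% of these. Of the same 14218 regions, 1841 had a peak in 1 of the 4 E14.5 and enterocyte libraries, 2607 in 2, 5225 in 3 and 3751 in all 4. E14.5 replicate 1 had a peak in 86.2% of the 14218 regions and enterocyte replicate 2 in 82.9%. Enterocyte replicate 1 reached 63.2% and E14.5 replicate 2 reached 33.1%. The absence of a peak was decided mostly by E14.5 replicate 1 and enterocyte replicate 2. Without E14.5 replicate 2 the set had 807 regions and without enterocyte replicate 1 it had 806, but without E14.5 replicate 1 it had 2064 and without enterocyte replicate 2 it had 1342. Without E12.5 replicate 2 it had 1470.

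H2A.Z enrichment in the 794 regions was low in every library that had it. The fold enrichment over the local background, as the authors' peak caller gave it, is that of the region's highest peak in a library. Its median was 3.29 in E12.5 replicate 1 (range 2.40 to 6.04) and 2.96 in E12.5 replicate 2 (2.19 to 5.17). It was 2.81 in ISC replicate 1 (2.03 to 4.62) and 3.05 in ISC replicate 2 (2.09 to 5.87). In the 13424 regions that had peaks in the same 4 libraries and in at least 1 other, the medians were 4.23 and 3.54 at E12.5 and 4.02 and 4.10 in ISC. As a percentile of all peaks of the same list, the median region stood at 38.4 and 29.6 in the E12.5 libraries and at 30.3 and 39.3 in the ISC libraries. The other 13424 regions stood at 70.7, 63.8, 71.5 and 74.98. Above the list's median fold lay 266 and 207 of the 794 regions in the E12.5 libraries and 144 and 279 in the ISC libraries. In all 4 libraries, 15 regions (1.89%) lay above it, against 48.1% of the other 13424, and 279 (35.1%) lay below it, against 5.58%. The regions were selected on calls of the same peaks, so these values are a description with no test.

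**Figure D1:**
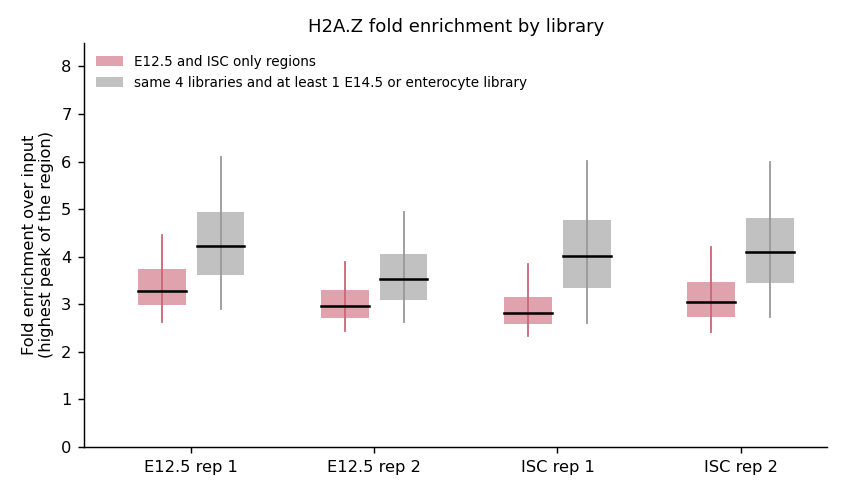
Fold enrichment of H2A.Z over input in the highest peak of each region (vertical axis) in the 4 E12.5 and ISC libraries, for the 794 regions without an E14.5 or enterocyte peak (red) and the 13424 regions with at least 1 (grey). Boxes span the quartiles, black lines are medians and thin lines reach from the 5th to the 95th percentile; the red medians, 2.81 to 3.29, lie below the grey ones, 3.54 to 4.23, in each library.

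The evidence for single peaks was modest as well. The median −log10 q was 3.87 and 2.84 in the E12.5 libraries and 3.26 and 3.73 in the ISC libraries, against 8.59, 5.804, 11.2 and 10.3 in the other regions of these 4 libraries. A −log10 q of at least 3 in all 4 libraries was reached by 143 of the 794 regions, or 18.01%, and by 75.6% of all 14218. At a level of 5 in all 4 libraries, 14 regions were left, or 1.76%, against 50.3% of all 14218. With lists of equal length, the 6136 strongest peaks of each library, the pattern was seen in 43 regions, and 0 of these overlapped the 794. When only peaks with a −log10 q of at least 10 were kept, 682 regions had the pattern and again 0 overlapped the 794. Both overlaps of 0 largely restate the low −log10 q of the 794 regions and are no separate check.

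Enrichment at E12.5 and in ISC rose stepwise with the number of E14.5 and enterocyte libraries that shared the region. Averaged over the 4 libraries, the median percentile was 34.4 in the 794 regions and 45.2 in regions with a peak in 1 of those libraries. It was 55.8 with 2, 70.6 with 3 and 85.4 with 4. The step between neighbouring classes was seen in each of the 4 E12.5 and ISC libraries. The classes were formed on peak calls, which themselves depend on enrichment, so this order is a description with no test. The 794 regions were the lowest of the 5 classes in each library, with the next class above them by 9.28 to 13.2 percentile points. Region width followed the same order, with medians of 876.5, 1063, 1312, 1573 and 1719 bp, but a merged region can only grow with each library added.

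**Figure D2:**
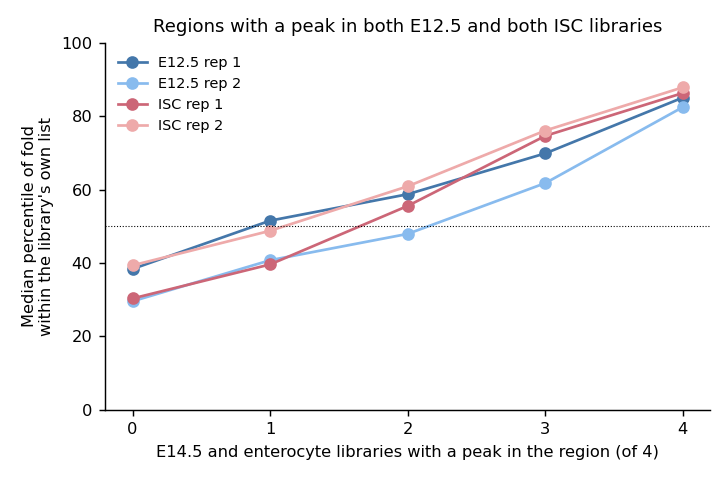
Median percentile of fold enrichment within each library's own peak list (vertical axis) for regions with a peak in both E12.5 and both ISC libraries, by the number of E14.5 and enterocyte libraries that also had one (horizontal axis). Each line is 1 library, and the dotted line marks the middle of a list; class 0 holds the 794 regions at 29.6 to 39.3, and class 4 stands at 82.5 to 87.8.

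Most regions just outside the set were kept out by E14.5 replicate 1 or enterocyte replicate 2 alone. E14.5 replicate 1 was the only other library with a peak in 1269 regions, with a median fold of 2.97, a median percentile of 37.4 and a median −log10 q of 2.89 there. Enterocyte replicate 2 was the only other library in 547 regions, with a median fold of 3.29, a median percentile of 30.1 and a median −log10 q of 2.68. In these 2 groups, 22.7% and 23.0% of the deciding peaks had a −log10 q under 2. E14.5 replicate 2 alone kept out 13 regions, with a median fold of 3.89 at percentile 65.4 of its list and a median −log10 q of 1.49. Enterocyte replicate 1 alone kept out 12, with a median fold of 3.96 at percentile 18.7 and a median −log10 q of 1.81.

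The 12 regions with the highest enrichment, ranked by the mean of their 4 percentiles, lay on 8 chromosomes. The strongest was chr8:71645202-71645880, with a fold of 4.06 and 4.68 at E12.5 and 3.98 and 5.49 in ISC. All 4 values were above the median of their lists, with a mean percentile of 81.5. All 4 libraries shared a core of 387 bp in it, and the nearest E14.5 or enterocyte peak was 31987 bp away. The region chr1:154344269-154345499 came next, with 3.45 and 5.16 at E12.5 and 4.31 and 4.18 in ISC. Here the E12.5 values enclosed both ISC values. The region chr7:136399971-136401170 had 3.82 and 3.53 at E12.5 and 4.62 and 5.04 in ISC. Both ISC values were above both E12.5 values.

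In some of the 12 both values of 1 stage were the higher, and in others 1 library stood apart. The share of all 794 regions with such an order of fold was not computed, so the orders below describe single regions only. The fold at chr7:139345929-139346644 was 4.69 and 4.74 at E12.5, against 2.99 and 3.41 in ISC. At chr4:34136605-34137279 it was 4.31 and 5.04 at E12.5, against 3.08 and 3.45 in ISC. In both regions the groups did not overlap, with E12.5 the higher. Agreement of replicates was poor at chr7:134519078-134519567, with 6.04 and 2.99 at E12.5 beside 3.96 and 4.31 in ISC. The value of 6.04 was the highest of all 794 regions in E12.5 replicate 1. A similar spread was seen at chr4:81409544-81410709, with 4.13 and 2.93 at E12.5 and 4.19 and 5.87 in ISC, the last the highest value in ISC replicate 2. Both ISC values were again above both E12.5 values, the nearest by a small margin. At chr15:94233749-94235122, E12.5 replicate 1 stood alone with 5.20, against 3.36 in the other E12.5 library and 3.82 and 4.01 in ISC.

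The remaining strong regions differed less between libraries. The region chr6:29383020-29383862 had a fold of 4.11 and 4.25 at E12.5 and 3.82 and 3.47 in ISC. The region chr10:117540095-117540602 had 4.22 and 3.98 at E12.5 and 3.46 and 3.82 in ISC. In both, the E12.5 values were the higher, by a small margin. The region chr13:108390381-108391139 had 3.88 and 3.77 at E12.5 and 4.49 and 3.42 in ISC, so that ISC enclosed E12.5. The region chr7:134530190-134530869 had 4.34 and 3.58 at E12.5 and 3.81 and 3.87 in ISC. It lay within 1 stretch of 11792 bp on chromosome 7 with the region of the highest E12.5 value, so 2 of the 12 strongest were neighbours. Its nearest E14.5 or enterocyte peak was 6120 bp away, the shortest distance among the 12, where the longest was 230950 bp, at chr4:81409544-81410709.

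**Figure D3:**
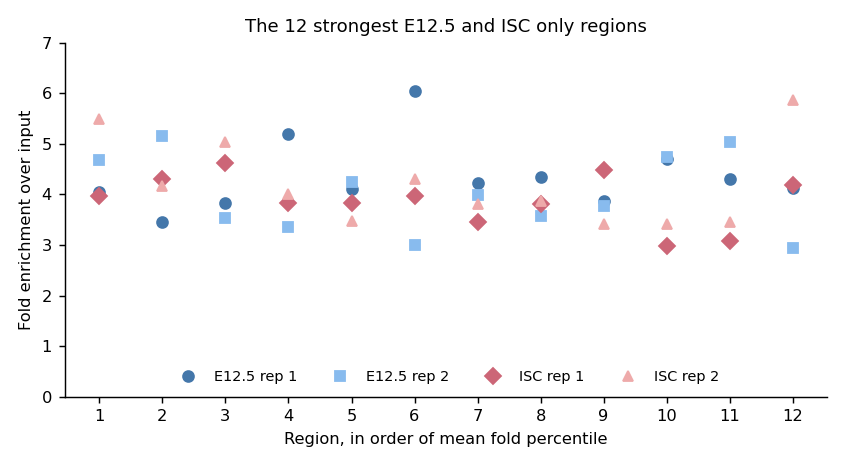
Fold enrichment over input (vertical axis) of the 12 strongest regions in order of their mean percentile (horizontal axis), 1 symbol per library. All values lie between 2.93 and 6.04, and E12.5 (blue) and ISC (red) overlap in 6 of the 12 regions. Regions 5, 7, 10 and 11 have both E12.5 libraries on top, and regions 3 and 12 both ISC libraries. The share of the whole set with such an order was not computed, so this order describes the 12 regions alone.

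At the other end, the weakest regions stood near the bottom of the lists. The region chr11:115865993-115866681 had a fold of 2.51 and 2.63 at E12.5 and 2.03 and 2.101 in ISC, with a mean percentile of 2.50. Its 4 peaks shared no common base, although they joined into 1 region. The region chr17:13879974-13881039 had 2.76 and 2.38 at E12.5 and 2.17 and 2.48 in ISC, with a −log10 q of 1.18 in E12.5 replicate 2 and 1.15 in ISC replicate 1. It had no common core either. The third weakest, chr17:86844007-86844841, had 2.67 and 2.40 at E12.5 and 2.28 and 2.57 in ISC, and a core of 193 bp.

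The rule joined overlapping peaks into regions, so closeness of the peaks within a region largely follows from it, and the positions are given as a description. A core covered by all 4 libraries existed in 763 of the 794 regions, or 96.1%, with a median width of 282 bp and a median of 36.4% of the region. In the other 13424 regions it existed in 99.5%, with a median of 843 bp and 58.1% of the region. The midpoints of the E12.5 and ISC peaks were a median of 86.8 bp apart in the 794 regions. The replicates of a stage were 69.2 bp apart at E12.5 and 65.0 bp in ISC. In the other regions these distances were 81.8, 62.5 and 60.5 bp, each slightly shorter. More than 1 peak of a library in a region was seen once, in ISC replicate 1.

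The level of enrichment was compared between libraries as a description. Across the 794 regions, Spearman's rho of the fold was 0.582 between the ISC libraries and 0.177 between the E12.5 libraries. Between E12.5 and ISC libraries it was 0.0739 to 0.134. In the other 13424 regions the same values were 0.868, 0.555 and 0.368 to 0.441. The points are regions, not replicates, the ISC libraries were called against the same input, and the 794 regions span a narrow range of fold. The width covered by peaks ranked more alike than the fold between the E12.5 libraries, at 0.474, and between the stages, at 0.223 to 0.329. Between the ISC libraries it was 0.567, slightly below the value for the fold.

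The choice of regions asked for a peak at E12.5 and in ISC and set no order between them. The widths below are those of the same called peaks, so they are given with no test; 2 libraries against 2 could not give an exact permutation p below 0.3333. The median width covered by peaks in the 794 regions was 596.5 and 445 bp in the E12.5 libraries and 559 and 570.5 bp in the ISC libraries. The means were 520.8 ± 107 bp at E12.5 and 564.8 ± 8.13 bp in ISC (SD, n = 2 each). The groups overlapped. In all 14218 regions of these libraries, the means were 1024.5 ± 110 bp at E12.5 and 1234 ± 18.4 bp in ISC (SD, n = 2 each). Here both ISC libraries were above both E12.5 libraries. Both ISC libraries covered more than both E12.5 libraries in 234 of the 794 regions, or 29.5%, against 50.7% of the 14218. The reverse held in 140 regions, or 17.6%, against 11.6%. The estimated fragment size, which equalled the narrowest peak of these regions in each library, was 216 and 204 bp at E12.5 and 247 and 228 bp in ISC, and its part in these widths was not tested.

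The width limit cut off few regions. The 794 regions measured 311 to 2856 bp, with a median of 876.5 bp and quartiles of 638.5 and 1201 bp, and 5 more of the pattern were 3000 bp or wider. The widest inside the limit, chr19:16946372-16949227, owed its 2856 bp to ISC replicate 1 alone, whose peak covered all of it. ISC replicate 2 covered 1122 bp there, and the E12.5 libraries 414 and 568 bp. In chr10:107890834-107893536, of 2703 bp, the ISC peaks covered 1636 and 1886 bp and the E12.5 peaks 473 and 300 bp. In chr7:52594012-52596578, of 2567 bp, they covered 2316 and 2179 bp in ISC and 1551 and 777 bp at E12.5. In each of the 3 the ISC peaks were the broader. Just outside, chr16:45607876-45611055 measured 3180 bp, chr7:121464834-121468079 measured 3246 bp and chr4:49190719-49194013 measured 3295 bp. ISC covered more than E12.5 in both libraries in these as well, with 2879 and 3030 bp against 1028 and 516 bp in the first. All these regions were picked for their width. Over the 14218 regions of the 4 libraries, both ISC libraries covered more in 50.7% and both E12.5 libraries in 11.6%.

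Regions found at 1 of these stages alone were narrower and slightly weaker. Regions with a peak in both E12.5 libraries and no other numbered 1977, with a median width of 561 bp, a median fold of 3.11 and 2.93 and a percentile of 29.6 and 27.6. Those of both ISC libraries and no other numbered 3063, with a median width of 643 bp, a fold of 2.71 and 2.97 and a percentile of 25.1 and 34.9. The corresponding values of the 794 regions, 38.4 and 29.6 at E12.5 and 30.3 and 39.3 in ISC, were above these in each of the 4 libraries. Region width comes from the peaks of 4 libraries in the 794 regions and of 2 in these sets. A merged region can only grow with each library added. The width covered by the peaks of 1 library was also larger in each of the 4 libraries. It was 596.5 and 445 bp against 469 and 400 bp at E12.5, and 559 and 570.5 bp against 451 and 527 bp in ISC. All 3 sets were chosen on these calls, so the differences are a description.

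The distance to the nearest peak of the missing stages was near that of all regions without such a peak, the 794 included. The median was 18207.5 bp (quartiles 7842.8 and 41200 bp), against 19349 bp over all 19377 regions with no E14.5 or enterocyte peak. Such a peak lay within 500 bp of 0 of the 794 regions and within 1000 bp of 5, or 0.630%, against 0.444% and 1.202% of the 19377. Within 10 kb lay a peak of these stages for 252 regions, or 31.7% (95% Wilson interval 28.6 to 35.1, which covers counting error only). This was near the 32.3% over all 19377 regions without such a peak. It lay between the 26.15% of regions found in both E12.5 libraries alone and the 37.12% of those found in both ISC libraries alone. Within 50 kb the shares were 79.1% and 74.4%. By library, a peak within 10 kb was present for 20.9% in E14.5 replicate 1, 6.42% in E14.5 replicate 2, 13.6% in enterocyte replicate 1 and 25.9% in enterocyte replicate 2. These shares followed the length of the lists, and over all regions without such a peak they were 21.3%, 6.19%, 14.0% and 26.2%. Regions shared by all 8 libraries lay within 10 kb of 29 of the 794 regions, or 3.65%, against 4.34% of all regions without an E14.5 or enterocyte peak.

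**Figure D4:**
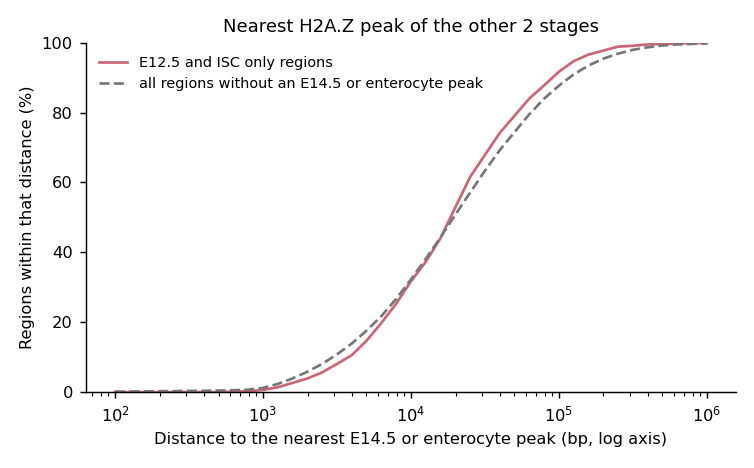
Share of regions (vertical axis) that have an E14.5 or enterocyte peak within a given distance (horizontal axis, log scale), for the 794 regions (red) and all 19377 regions without such a peak (grey, dashed). The curves run close together, with 31.7% and 32.3% at 10 kb and 79.1% and 74.4% at 50 kb.

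Groups of neighbouring regions were few, and no share for other sets of this size was computed beside them. Within 50 kb of another region of the set lay 78 regions, or 9.82%, in 38 groups, and 716 had none so near. The largest groups held 3 regions each. One spanned chr11:120352814-120411566, where the fold in E12.5 replicate 1 was 3.28, 3.62 and 4.10 from the first to the last region and in ISC replicate 1 was 2.20, 3.15 and 2.80. The other spanned chr15:102486558-102567017, where the 3 regions had a fold of 2.49 to 3.06 at E12.5 and 2.32 to 2.82 in ISC. The mean percentile was 12.6 to 38.8 in the first group and 14.46 to 27.7 in the second. In E12.5 replicate 1 alone, the last 2 regions of the first group stood above the list's median, at 52.0 and 67.0.

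The closest neighbours lay on chromosome 9, where 2 regions shared a stretch of 5556 bp. At chr9:79562142-79563390 the fold was 2.60 and 2.69 at E12.5 and 4.08 and 4.27 in ISC, with a −log10 q of 9.11 and 8.80 in ISC against 2.00 and 1.35 at E12.5. At chr9:79565980-79567697 it was 3.46 and 2.75 at E12.5 and 2.49 and 2.70 in ISC. ISC was the higher in the first. In the second, both E12.5 values of fold were the higher, the nearest by a small margin. The percentiles within the lists gave no such order there, with 45.8 and 15.1 at E12.5 and 11.6 and 19.7 in ISC. On chromosome 18, 2 regions within 8343 bp had 4.22 and 4.59 in the first E12.5 library, but 3.15 and 2.78 in the second. In ISC they had 3.05 and 2.59 in replicate 1 and 3.58 and 3.02 in replicate 2, so that the first E12.5 library stood above the other 3 libraries in both. On chromosome 13, the first of 2 regions within 11304 bp had 3.62 and 2.62 at E12.5 and 2.54 and 3.58 in ISC. The second had 2.96 and 2.66 at E12.5 and 3.25 and 3.23 in ISC, so that both ISC libraries were the higher there, while the first region showed no order of the stages.

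The 794 regions were spread over all 19 autosomes. Chromosome 11 held the most, 77, and chromosome 12 the fewest, 22. As a share of the regions with peaks in both E12.5 and both ISC libraries, they ranged from 3.71% on chromosome 3 (95% Wilson interval 2.57 to 5.35) to 7.64% on chromosome 19 (5.597 to 10.4), around 5.58% for all autosomes. On chromosome 3 and chromosome 19 that overall share lay just outside the interval, and on the other 17 chromosomes it lay inside. The intervals treat regions as independent, and among 19 of them some may miss the overall share by counting error alone. No chromosome is singled out by them. No test was made over the 19 chromosomes, and neighbouring regions are not independent. On chromosome 18 the share was 7.24% (5.15 to 10.1) and on chromosome 11 it was 6.67% (5.37 to 8.26).

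**Figure D5:**
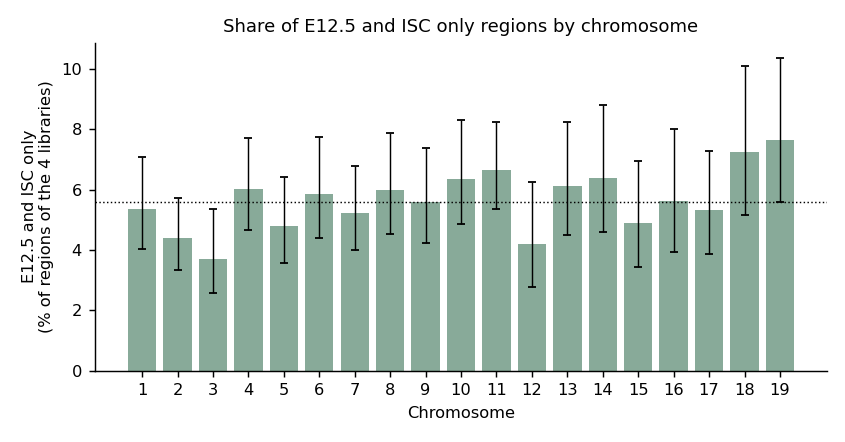
Share of the regions with peaks in both E12.5 and both ISC libraries that had no E14.5 or enterocyte peak (vertical axis, percent) on each autosome (horizontal axis), with 95% Wilson intervals as error bars and the overall 5.58% as a dotted line. Shares run from 3.71% on chromosome 3 to 7.64% on chromosome 19.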

How the data were processed

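The 8 deposited lists hold the H2A.Z peaks of 1 library each, not pooled. Per the file headers, the authors called them as broad regions against input with MACS 2.1.0.20140616 (q cutoff 0.05). The lists also held peaks weaker than this cutoff. The lowest −log10 q of a list ran from 1.003 (ISC replicate 2) to 1.059 (enterocyte replicate 1). In the chosen regions the lowest was 1.103 and 1.044 in the E12.5 libraries and 1.093 and 1.117 in the ISC libraries. A peak in these regions therefore need not have passed a q of 0.05. Build mm9 is given by the submitters' processing notes, beside Bowtie 1.1.2 and SAMtools 1.2 and, as a further tool, bcl2fastq 1.8.4. Pileup (a coverage signal), −log10 p, −log10 q and fold enrichment (a ratio to the local background) were deposited by the authors for each peak, per the file headers. Each was used to describe, rank or filter peaks within its own list. Fold and −log10 q were also set side by side between libraries, as a description only. The lists differed in input, fragment size and median fold. That median was 3.573 and 3.285 in the E12.5 lists and 3.271 and 3.28 in the ISC lists. Embryonic libraries had an input each; ISC libraries shared 1, and enterocyte libraries another.

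Union regions, presence, covered width and distances were computed with Python 3.11.15, pandas 2.3.3 and SciPy 1.17.1, after a check with planted regions. Percentiles of fold are mid-ranks over all peaks of a list. Named were the 12 strongest and 3 weakest regions by mean percentile, 3 at each side of the width limit and the 5 densest groups (members at most 50 kb apart). The regions, lists and alternatives were chosen with earlier results of these data known. Regions were chosen on the calls, so no test is used, neither across regions nor between libraries. An exact permutation of the median covered widths of E12.5 and ISC libraries was run, but its p could not fall below 0.3333. Promoter content, motifs and gene lists were not analysed here, for want of mm9 gene positions and sequence.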

Additional observations from a re-analysis of the deposited data

How the results depend on the processing

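The count of 794 regions was within 1.5 times under 11 of 16 alternatives, but which regions it covered depended on the peak threshold. With peaks of −log10 q of at least 10 in all lists, the median width was 1583.5 bp, the median percentile among the kept peaks 57.6 and the share within 10 kb of an E14.5 or enterocyte peak 1.47%. That level left 0 peaks of enterocyte replicate 1 and 2 of E14.5 replicate 2. At a level of 3 the count was 847, of which 143 overlapped the 794, with a width of 1110 bp and a share of 21.8%. With the 6136 strongest peaks of each library the count was 43, the width 1314 bp and the share 11.6%. When a library had to cover at least 50% of a region, 1078 regions had the pattern, 310 of them among the 794, with a width of 1025.5 bp, a percentile of 53.0 and a share of 81.0%; such a region may itself hold a smaller E14.5 or enterocyte peak. 2 alternatives were chosen after seeing the data. Asking for a −log10 q of at least 3 at E12.5 and in ISC alone gave 143 regions and a percentile of 51.7. Leaving out both libraries of short fragment size gave 819 regions. All 794 were among them, which was fixed in advance because fewer libraries could exclude a region. Within 50 kb the share was 79.1%. Merging within 500 bp and dropping the width limit left all 4 measures within their limits. Leaving out each library in turn gave 806 to 2064 regions, widths of 769 to 981 bp, percentiles of 31.6 to 42.8 and shares of 24.4 to 33.4%. Of the 794 regions, 788 to 794 overlapped those found. Leaving out a library only loosens the rule, so this overlap was nearly fixed in advance and is no check of stability. The share near a gene start was not run. No paired analysis was possible because the count comes from no test. A missing peak is a missing call, not a measured absence of H2A.Z. The lists were not ordered by tags throughout: enterocyte replicate 1 had 37938260 tags and 14256 peaks, and ISC replicate 1 had 31507399 tags and 26925 peaks. The E14.5 libraries, however, had the fewest tags, 30915480 and 27835048, and replicate 2 also had the fewest peaks, 6136. The part of sequencing depth in the list lengths was not tested.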
